A study of Mus musculus with 12 samples.

Results

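Meiotic recombination was described through 49 genes that act on programmed double-strand breaks, from the cut itself to the crossover and the damage signal. A gene was taken wherever its symbol stood in the gene name of a deposited row, and where several rows carried a symbol, the row with the highest mean was used. The symbols were looked up among 24711 named rows of GC2 libraries, where 45 of the 49 had a row, and among 36823 named rows of spermatocyte libraries, where all 49 had one. The 12 mouse RNA-seq libraries formed 4 groups of 3, named control GC2, Phb knockdown GC2, control spermatocytes and Phb knockout spermatocytes. GC2 is an established cultured line derived from mouse spermatocytes. The spermatocytes came from tubules of conditional Phb knockout and control mice, which were digested with enzymes and sorted by Hoechst fluorescence. The labels and protocols read here do not state the method of the knockdown, the Cre and promoter behind the knockout, or the ages of the mice. The labels do not name the culture or animal behind a library, so the spread that the p-values rest on may be technical.

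At the start of meiosis, Spo11 cuts DNA at sites marked by Prdm9, and the broken ends are trimmed into single strands. RPA coats these strands, Brca2 helps to load recombinases such as Dmc1, and the strands then invade the homologous chromosome. A few of the joined molecules are protected by Msh4 and Msh5 and become crossovers, which hold homologues together. The kinases Atm and Atr report unrepaired breaks, and Atr acts in silencing the unpaired sex chromosomes. Phb encodes prohibitin, a scaffold protein of the inner mitochondrial membrane.

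The values are FPKM, that is, sequenced fragments counted relative to the length of a transcript and the size of a library. Phb itself stood at 56.62, 53.99 and 52.36 FPKM in control GC2 and at 22.66, 18.37 and 19.02 in knockdown GC2, 36.8% of the control mean. In spermatocytes Phb stood at 12.6, 13.35 and 13.86 FPKM in controls and at 11.81, 11.33 and 11.53 in knockouts, 87.1% of the control mean. The labelled direction held in both kinds of sample in the FPKM as deposited, by a small margin in spermatocytes (log2 fold change -0.18). Other scalings, described below, moved the median of all spermatocyte rows from 0.05 to as much as 0.28. The Phb change under those scalings is not given here. The sorted spermatocyte libraries also differed in cell markers. The summed FPKM of 10 pachytene to diplotene markers went from 2338 to 2385 in controls to 46.4 to 49.01 in knockouts, and that of 8 spermatid markers from 785 to 788 to 6.33 to 8.73. The sum of 10 leptotene to zygotene markers was 515 to 518 against 354 to 362, and 8 of them fell. The sum of 8 spermatogonia markers was 215 to 220 against 241 to 250, with 4 lower and 2 higher. Sertoli cell markers, 12 of 13 of which rose, summed to 998 to 1105 in controls and 4313 to 4502 in knockouts, and 7 Leydig cell markers to 19.8 to 20.41 against 192 to 196. The sums of 6 myoid and endothelial markers (26.8 to 28.2 against 52.98 to 54.2), 6 immune markers (10.9 to 16.7 against 24.3 to 27.96) and 6 mesenchymal markers (62.6 to 69.4 against 127 to 134) were higher in knockouts too. Of 4 mesenchymal markers tested, however, 2 fell (Col1a1 and Col1a2) and 1 rose (Vim, from a mean of 32.8 to 109.5 FPKM). The higher mesenchymal sum thus came with Vim. The share of mitochondrially encoded rows in the summed FPKM was 12.2% to 13.6% for controls and 17.1% to 19.5% for knockouts. The part of these shifts in the results below was not tested, and in such bulk libraries fewer cells of a type and less RNA per cell cannot be told apart.

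In knockout spermatocytes 10 of 13 crossover genes and the break-making gene Spo11 fell. The recombinase Dmc1, the hotspot gene Prdm9 and the ubiquitin ligase gene Ubr2 rose. All 49 genes were tested, and 28 fell and 9 rose by limma at a Benjamini-Hochberg adjusted p under 0.05. Over the whole table of 15957 tested rows, 38.5% were lower and 40.9% higher. The median log2 fold change of the 49 genes was -0.25, against 0.05 over all tested rows. Fold changes on the log2 scale are of FPKM + 1, and other folds are ratios of group means. With each library centred on its median, 19 fell and 14 rose, and the median of all rows stood at 0.21 in place of 0.05. Of all 15957 rows, 5345 were then lower and 7745 higher. With quantile normalization 19 fell and 12 rose, beside 5041 and 8218 of all 15957 rows. With mitochondrially encoded rows removed, 23 fell and 10 rose, beside 5896 and 7217 of 16526 rows. The 19 that fell under each of 3 other scalings were Spo11, Mei1, Ankrd31, Mre11a, Psmc3ip, Spata22, Mcmdc2, Hsf2bp, Rpa1, Msh4, Pms2, Hfm1, Ccnb1ip1, Cntd1, Eme1, Slx4, Blm, Atr and Mdc1. The 9 that rose did so under each of them too. Of the 37 called genes, 18 moved by less than 1.5-fold, so many of the calls were small. At least 2-fold falls were seen in 9 genes and 2-fold rises in 0.

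**Figure D1:**
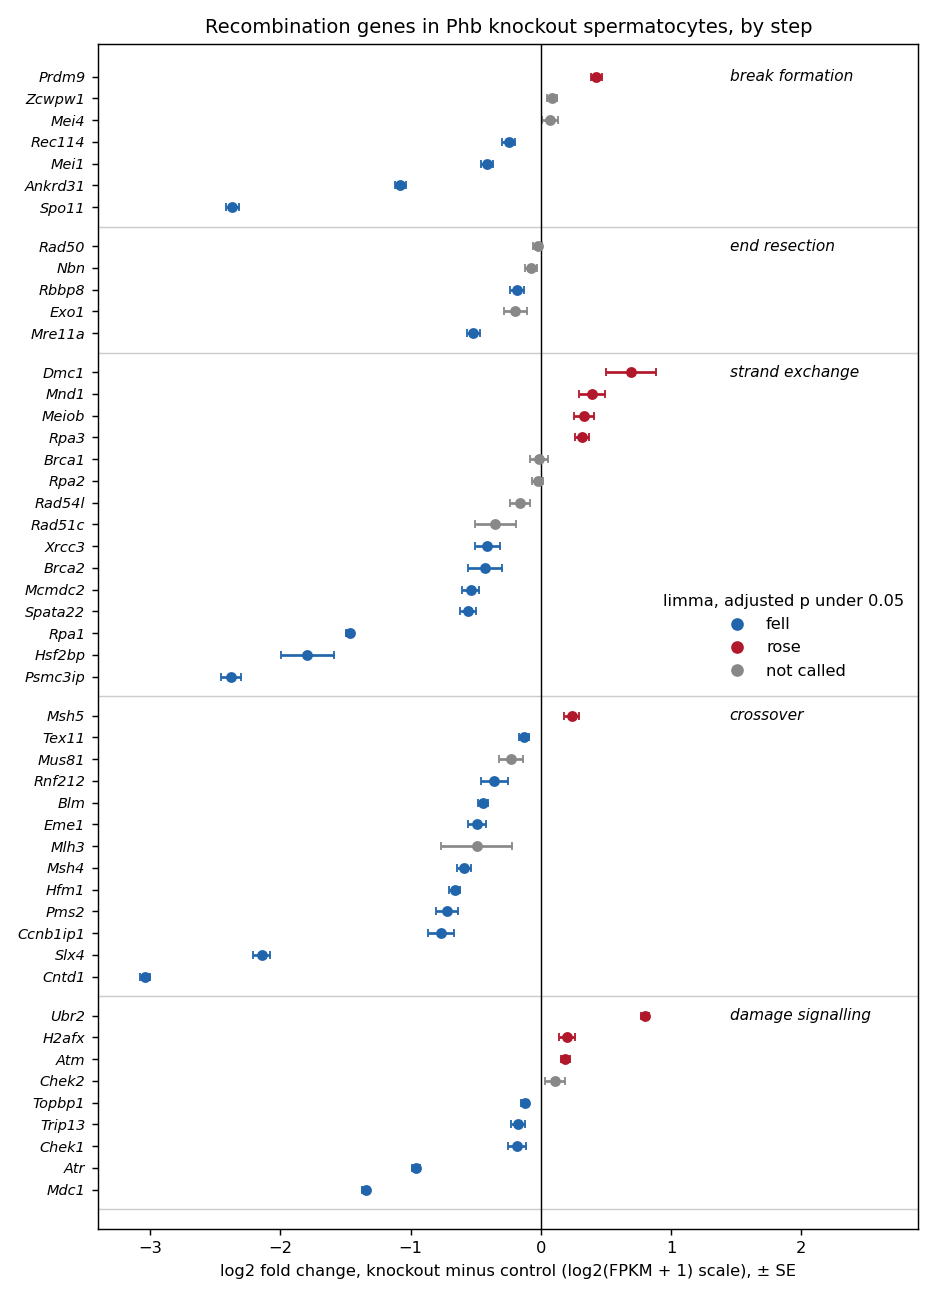
Log2 fold change of the 49 genes in spermatocytes, knockout minus control, on the log2(FPKM + 1) scale, with bars of ± 1 SE from the limma fit, grouped by step; 3 libraries a group. Blue points fell, red points rose and grey points were not called. The largest falls are those of Cntd1, Psmc3ip, Spo11 and Slx4, and each of these 4 genes lies below -2.

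Promoter sequence is shown for 5 genes that stand at both ends of this range and whose window is nearly free of annotated exons. Each line is the 250 bases before the RefSeq start on GRCm38.p6, written 5′ to 3′ on the strand of the gene, with CCAAT or its reverse complement ATTGG in capitals. They lie at chr11:101095436-101095685 (minus strand) for Psmc3ip, chr3:84155787-84156036 (minus) for Mnd1, chr15:79605110-79605359 (minus) for Dmc1, chr17:35841248-35841497 (plus) for Mdc1 and chr17:47010533-47010782 (minus) for Ubr2. Psmc3ip and Mdc1 fell, and Mnd1, Dmc1 and Ubr2 rose.
Psmc3ip: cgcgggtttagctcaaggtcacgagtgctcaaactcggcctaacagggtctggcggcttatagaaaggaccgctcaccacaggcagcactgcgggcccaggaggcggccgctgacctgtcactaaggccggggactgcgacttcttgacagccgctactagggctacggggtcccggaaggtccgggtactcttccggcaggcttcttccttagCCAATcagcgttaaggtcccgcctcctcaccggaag
Mdc1: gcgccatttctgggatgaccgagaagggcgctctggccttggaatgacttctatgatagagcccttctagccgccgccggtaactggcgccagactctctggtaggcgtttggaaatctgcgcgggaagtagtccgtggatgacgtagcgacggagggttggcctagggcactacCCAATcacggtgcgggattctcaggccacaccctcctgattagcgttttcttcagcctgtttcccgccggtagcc
Mnd1: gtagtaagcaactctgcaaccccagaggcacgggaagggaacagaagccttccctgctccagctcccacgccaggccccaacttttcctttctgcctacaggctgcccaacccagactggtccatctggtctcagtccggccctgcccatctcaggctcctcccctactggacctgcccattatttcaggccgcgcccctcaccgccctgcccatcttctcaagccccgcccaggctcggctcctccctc
Dmc1: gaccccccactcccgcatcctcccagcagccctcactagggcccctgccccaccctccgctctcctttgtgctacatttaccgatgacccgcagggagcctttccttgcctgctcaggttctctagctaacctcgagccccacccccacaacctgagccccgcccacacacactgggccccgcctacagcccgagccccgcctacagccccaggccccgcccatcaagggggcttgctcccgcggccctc
Ubr2: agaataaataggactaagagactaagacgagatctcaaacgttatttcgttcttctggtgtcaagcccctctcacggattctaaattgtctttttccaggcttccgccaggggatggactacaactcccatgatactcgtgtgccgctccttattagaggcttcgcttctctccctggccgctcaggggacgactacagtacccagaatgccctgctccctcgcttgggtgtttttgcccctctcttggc
CCAAT stood at 36 bases before the start of Psmc3ip and 75 before that of Mdc1, and nowhere in the windows of the other 3. Prdm9, which rose by more than Mnd1 and is not shown, held it 19 bases before a start. Of the 49 genes, 40 had a window in the RefSeq table, which reaches to 50 bases after the start. CCAAT, searched on both strands and chosen after the sequences were seen, was held by 12 of 24 genes that fell, 4 of 7 that rose and 6 of 9 not called, against 37.4% of 32851 windows in all. The E-box CACGTG, which reads the same on both strands, was held by 6 genes, all of which fell, against 7.15% of all windows. These were Cntd1, Eme1, Rec114, Rnf212, Rpa1 and Slx4. The windows of Rec114 and Slx4 lie wholly inside the gene as GENCODE M21 gives it, and the matches of Cntd1 and Rpa1 lie inside an annotated exon. The MYB motif AACNGTT stood in the window of Brca1 alone (4.45% of all windows) and the CREB motif TGACGTCA in those of Brca2 and Rad51c (1.79%). These are matches of letters and show no binding.

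Among 7 break formation genes, 4 fell, 1 rose and 2 were not called, with a median log2 fold change of -0.25. With quantile or median scaling 3 fell and 3 rose, the added rises being those of Zcwpw1 and Mei4. Spo11, the enzyme that makes the cut (chromosome 2, 172977700 to 172993576), stood at 17.45, 17.6 and 17.27 FPKM in controls and at 2.57, 2.37 and 2.77 in knockouts. Its groups lay far apart, at 6.79-fold lower in knockouts (log2 fold change -2.37, SE 0.050, adjusted p = 1.18e-07 by limma). Ankrd31, a partner of Rec114 needed for breaks where the sex chromosomes pair, stood at 14.01, 14.19 and 14.97 FPKM against 6.05, 6.46 and 6.33, 2.29-fold lower. Mei1, a gene required for break formation, went from 4.08, 4.36 and 4.29 to 3.09, 2.91 and 2.81 FPKM (log2 fold change -0.41). In both genes every knockout library was below every control library.

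Prdm9, the histone methyltransferase that chooses the sites of breaks, stood at 5.46, 5.62 and 5.19 FPKM in controls and 7.45, 7.76 and 7.69 in knockouts. It was the break formation gene that rose, by 0.43 on the log2 scale (SE 0.042, adjusted p = 0.000127 by limma). Zcwpw1, a reader of the histone marks that Prdm9 sets, had 18.19, 20.12 and 19.02 against 20.28, 20.43 and 20.34 FPKM and was not called (adjusted p = 0.090, limma). The genes that choose and read sites were thus not lower, while the gene of the cutting enzyme was at 14.7% of the control mean.

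Rec114 and Mei4 encode proteins of the complex that brings the cutting machinery to the chromosome axis. Rec114 stood at 5.9, 5.96 and 5.66 FPKM in controls and 5.06, 4.77 and 4.48 in knockouts, a fall (-0.25 on the log2 scale) that was not called with quantile or median scaling. Mei4 was low, at 1.08, 1.1 and 1.1 against 1.04, 1.23 and 1.32 FPKM, with overlapping groups. The ratio of Mei4 to Rec114 was 0.187 ± 0.0061 (SD, n = 3) in controls and 0.253 ± 0.045 in knockouts.

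Among 5 end resection genes, 2 fell, 0 rose and 3 were not called. Mre11a encodes the nuclease of the complex that trims broken ends. It stood at 9.16, 10.37 and 9.61 FPKM in controls and 6.43, 6.36 and 6.62 in knockouts, with groups apart, and fell by 0.52 on the log2 scale (SE 0.051, adjusted p = 0.000128 by limma). Its partners differed from it. Rad50, the ATPase that tethers the ends, had 12.56, 12.99 and 12.12 against 12.04, 12.51 and 12.44 FPKM, and Nbn, the subunit that recruits Atm, had 13.31, 13.93 and 12.72 against 12.19, 12.75 and 12.82. Both overlapped between the groups and were not called, although Rad50 was called higher with median centring. The ratio of Mre11a to Rad50 was 0.729 to 0.798 in controls and 0.508 to 0.534 in knockouts, and that to Nbn was 0.688 to 0.756 against 0.499 to 0.527.

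Rbbp8 encodes CtIP, which starts resection together with the Mre11 nuclease. Its annotated row held 6.06, 6.43 and 5.87 FPKM in controls and 5.28, 5.02 and 5.52 in knockouts, a small fall of 0.18 on the log2 scale that was lost without control 2 and under each other scaling. A second row of Rbbp8, which holds assembled transcripts only, went the other way, from 1.35, 2.29 and 1.42 to 6.14, 10.14 and 9.72 FPKM (log2 fold change 1.84, adjusted p = 0.00032 by limma). Summed over its rows Rbbp8 was higher by 0.76, so the direction depends on the row. Exo1, the exonuclease that extends resection, stood at 3.23 to 4.01 FPKM in controls and 2.84 to 3.32 in knockouts and was not called.

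**Figure D2:**
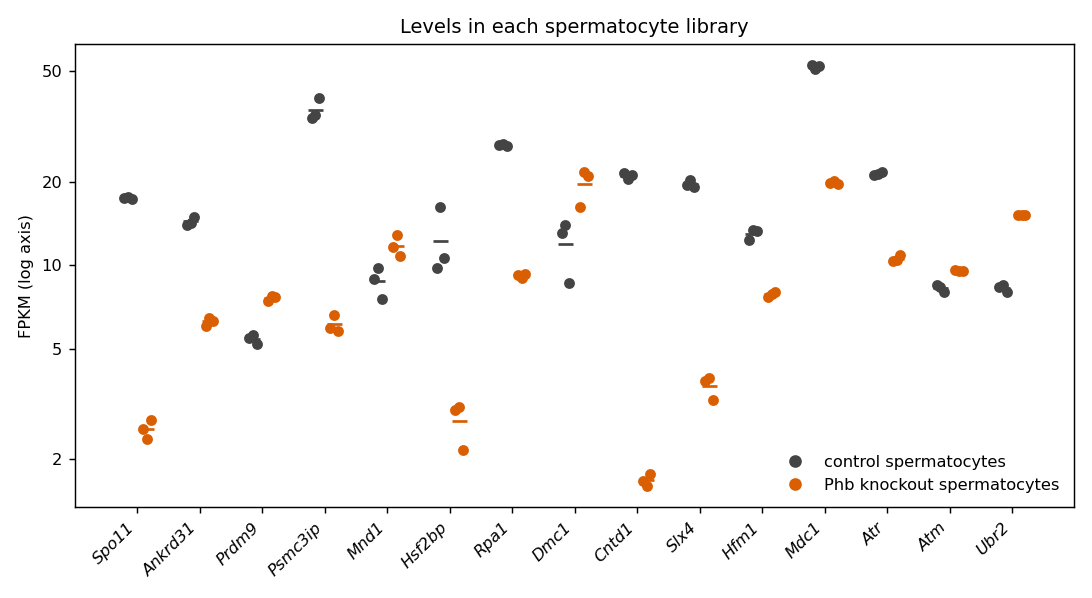
FPKM of 15 recombination genes in each spermatocyte library on a log axis; points are the 3 libraries of a group and short lines are group means. Spo11, Psmc3ip, Hsf2bp, Cntd1 and Slx4 lie well below their controls in each knockout library, while Prdm9, Mnd1, Dmc1, Atm and Ubr2 lie above theirs.

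Strand exchange genes were divided, with 7 of 15 lower, 4 higher and 4 not called. Over all tested rows 38.5% were lower and 40.9% higher, so the share that fell was not far from that of all rows. With quantile scaling 5 fell and 4 rose, and with median centring 5 and 5. Dmc1, the recombinase made only in meiosis (chromosome 15, 79561497 to 79605109), stood at 13.03, 13.96 and 8.67 FPKM in controls and 16.27, 21.6 and 20.9 in knockouts. The groups did not overlap, and Dmc1 rose by 0.69 on the log2 scale (SE 0.19, adjusted p = 0.016 by limma). The call was lost without knockout 2 or knockout 3, with adjusted p up to 0.054 in limma fits that leave out 1 library.

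Psmc3ip and Mnd1 encode the HOP2 and MND1 proteins, which work as a heterodimer that stimulates Dmc1. Psmc3ip (chromosome 11, 101091823 to 101095436) stood at 33.86, 34.78 and 39.94 FPKM in controls and 5.97, 6.64 and 5.81 in knockouts, 5.89-fold lower (log2 fold change -2.38, SE 0.077, adjusted p = 7.02e-07 by limma). Mnd1 stood at 8.91, 9.78 and 7.58 FPKM in controls and 11.66, 12.87 and 10.8 in knockouts and rose by 0.39 (SE 0.10, adjusted p = 0.012 by limma). The partners therefore moved in opposite directions, and FPKM being per length, Psmc3ip was the higher of them in every control library and the lower in every knockout library. Their ratio was 3.80, 3.56 and 5.27 in controls and 0.512, 0.516 and 0.538 in knockouts.

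Meiob and Spata22 encode another meiotic partnership, which binds single-stranded DNA with RPA. Meiob stood at 7.07, 8.01 and 8.08 FPKM in controls and 8.95, 10.51 and 10.52 in knockouts, a rise of 0.33 on the log2 scale. Spata22 lies on a row shared with Gm49340 and Olfr20, so its value cannot be given to Spata22 alone. That row held 6.31, 7.01 and 7.1 FPKM in controls and 4.17, 4.62 and 4.11 in knockouts, a fall (-0.56). Here too the groups of each gene were apart and the directions opposite, and the ratio of Meiob to the Spata22 row went from 1.13 ± 0.012 (SD, n = 3) to 2.33 ± 0.21.

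The subunits of RPA, the general single-strand binding protein, also parted. The row of Rpa1, the large DNA-binding subunit, is shared with Gm47300 and held 27.1, 27.45 and 26.82 FPKM in controls and 9.21, 8.97 and 9.33 in knockouts (log2 fold change -1.47, adjusted p = 8.52e-08 by limma). Rpa2, the middle subunit, had 26.57, 24.6 and 25.58 against 26.25, 25.0 and 24.2 FPKM and was not called, but was called higher with median centring. Rpa3, the small subunit, rose from 11.13, 11.82 and 11.45 to 13.47, 15.09 and 15.11 FPKM (0.32 on the log2 scale). The ratio of the Rpa1 row to Rpa2 was 1.02 to 1.12 in controls and 0.351 to 0.386 in knockouts.

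Hsf2bp encodes a germ cell protein that binds Brca2, the loader of recombinases. Hsf2bp stood at 9.79, 16.28 and 10.61 FPKM in controls and 3.01, 3.08 and 2.17 in knockouts, 4.44-fold lower (log2 fold change -1.79, SE 0.20, adjusted p = 0.000262 by limma). Brca2 stood at 7.52, 10.31 and 7.09 FPKM in controls and 5.67, 6.02 and 5.81 in knockouts, a smaller fall (-0.43) that was lost without knockout 1 or knockout 3 and with quantile or median scaling. Control 2 was the highest library for both genes. The ratio of Hsf2bp to Brca2 was 1.46 ± 0.14 (SD, n = 3) in controls and 0.472 ± 0.086 in knockouts.

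Mcmdc2, an MCM-like protein gene needed for meiotic repair, fell from 2.64, 2.34 and 2.52 to 1.58, 1.31 and 1.35 FPKM (-0.54 on the log2 scale). Xrcc3, a strand exchange mediator gene, went from 5.32, 4.67 and 4.69 to 3.23, 3.06 and 4.06 FPKM (-0.41), a call that was lost with quantile or median scaling. Rad51c, whose product binds that of Xrcc3, depended on the row. The row with the highest mean holds assembled transcripts only, stood at 9.91, 8.57 and 7.7 against 5.1, 7.87 and 7.12 FPKM, and was not called (adjusted p = 0.087, limma). The annotated row of Rad51c, at 7.68, 7.45 and 8.45 against 3.97, 3.9 and 3.62 FPKM, fell (-0.87, adjusted p = 2.1e-05 by limma). Brca1, a partner of resection and recombinase loading, and Rad54l, a translocase that works with recombinases, were not called, and their groups overlapped.

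Among the steps of the 49 genes, crossover leaned furthest downward, with 10 of 13 lower, 1 higher and 2 not called. The median log2 fold change was -0.49. With quantile or median scaling 8 fell and 1 rose. Cntd1, a cyclin-like protein gene that limits and completes crossover sites (chromosome 11, 101279012 to 101296317), had the largest change of the 49 genes. It stood at 21.43, 20.51 and 21.22 FPKM in controls and 1.68, 1.6 and 1.77 in knockouts, 12.5-fold lower (log2 fold change -3.04, SE 0.041, adjusted p = 2.44e-08 by limma). Slx4, the scaffold that holds structure-specific nucleases (chromosome 16, 3979105 to 4003770), stood at 19.45, 20.35 and 19.07 against 3.83, 3.93 and 3.27 FPKM, 5.34-fold lower (log2 fold change -2.14, SE 0.065, adjusted p = 5.24e-07 by limma). In both genes the replicates of a group stayed close together and the groups far apart.

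Msh4 and Msh5 encode the heterodimer that stabilises crossover intermediates. Msh4 stood at 2.54, 2.62 and 2.43 FPKM in controls and 1.25, 1.32 and 1.46 in knockouts, a fall (-0.59, adjusted p = 0.000101 by limma). Msh5 stood at 3.77, 3.54 and 4.02 against 4.44, 4.8 and 4.63 FPKM and was the crossover gene that rose (0.24, adjusted p = 0.0076 by limma). Their ratio was 0.604 to 0.740 in controls and 0.275 to 0.315 in knockouts. Msh4 and Msh5, like Psmc3ip and Mnd1, are partners in 1 heterodimer whose transcripts moved in opposite directions.

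**Figure D3:**
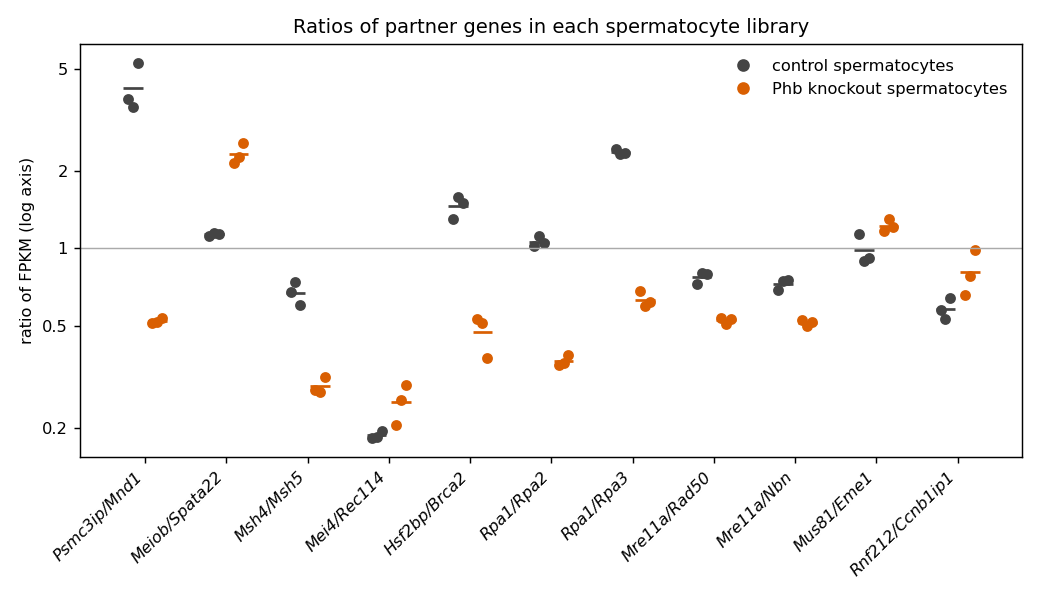
Ratio of the FPKM of partner genes in each spermatocyte library, on a log axis; points are the 3 libraries of a group and short lines are group means. Psmc3ip/Mnd1 drops from a mean of 4.21 to 0.522 and Rpa1/Rpa3 from 2.37 to 0.632, while Meiob/Spata22 goes up from 1.13 to 2.33; the rows of Rpa1, Spata22 and Ccnb1ip1 are shared with other gene names.

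Hfm1, the helicase of the crossover pathway, stood at 12.32, 13.44 and 13.29 FPKM in controls and 7.68, 7.89 and 8.0 in knockouts, a fall of 0.66 on the log2 scale. The rows of Ccnb1ip1, the ubiquitin ligase HEI10, and of Pms2, a mismatch repair endonuclease, are shared with other genes (Rpph1 for the former, Gm42421 and Rsph10b for the latter). The Ccnb1ip1 row held 6.66, 6.17 and 6.88 against 3.71, 3.87 and 2.85 FPKM, and the Pms2 row 4.51, 4.99 and 4.4 against 2.8, 2.24 and 2.21. Both fell, by 0.76 and 0.72 on the log2 scale. Rnf212, the ligase that marks crossover sites in concert with HEI10, stood at 3.82, 3.28 and 4.39 against 2.45, 3.02 and 2.82 FPKM. Its fall (-0.36, adjusted p = 0.019 by limma) was lost without control 1 or knockout 1, and with quantile or median scaling.

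Eme1, the partner of the Mus81 nuclease, fell from 5.05, 5.37 and 5.22 to 3.76, 3.51 and 3.05 FPKM (-0.49). Mus81 itself had 5.72, 4.8 and 4.8 against 4.4, 4.56 and 3.68 FPKM and was not called (adjusted p = 0.063, limma). The ratio of Mus81 to Eme1 was 0.894 to 1.13 in controls and 1.17 to 1.30 in knockouts. Blm, the helicase that dissolves joint molecules, fell by 0.44. Tex11, an X-linked crossover gene, fell by 0.13 from 18.9 to 17.2 FPKM, and its sign turned with quantile and median scaling. Mlh3, the endonuclease subunit that marks final crossovers, had 7.19 FPKM in control 1 against 3.54 and 2.97 in the other controls and 2.42 to 3.01 in knockouts, and was not called.

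Among 9 damage signalling genes, 5 fell, 3 rose and 1 was not called, but with quantile or median scaling 2 fell and 4 rose. The falls of Mdc1 and Atr were at least 2-fold. Mdc1, the adaptor that binds phosphorylated H2AX and spreads the signal over the sex chromosomes (chromosome 17, 35841515 to 35859670), had the highest control level of the 49 genes. It stood at 52.61, 51.07 and 52.13 FPKM in controls and 19.71, 20.06 and 19.69 in knockouts (log2 fold change -1.35, SE 0.024, adjusted p = 6.49e-08 by limma). Atr, the kinase that acts with Mdc1 there, lies on a row shared with Gm24004, which held 21.19, 21.37 and 21.7 against 10.4, 10.41 and 10.89 FPKM, 2.03-fold lower. Neither showed any overlap between groups.

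Ubr2, a ubiquitin ligase of the N-degron pathway needed in spermatocytes (chromosome 17, 46928295 to 47010556), had the largest rise of the 49. It stood at 8.37, 8.51 and 8.01 FPKM in controls and 15.19, 15.15 and 15.18 in knockouts (log2 fold change 0.80, SE 0.033, adjusted p = 2.09e-06 by limma). Atm, the kinase that answers breaks first, rose from 8.5, 8.37 and 7.99 to 9.65, 9.53 and 9.56 FPKM, by 0.19 on the log2 scale. H2afx, the histone variant that both kinases phosphorylate, stood at 24.64, 23.37 and 21.27 against 27.13, 27.31 and 25.54 FPKM, and its rise of 0.20 was lost without knockout 1 or knockout 2. Atm and the Atr row thus differed in direction, and the Atm change was small.

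The other changes in signalling genes were small. Topbp1, the activator of Atr, went from 13.78, 13.98 and 14.23 to 12.8, 12.76 and 12.73 FPKM, and this fall of 0.12 turned in sign with median centring. Trip13, the ATPase that strips HORMA proteins from synapsed axes, had 11.18, 10.44 and 10.98 against 9.31, 8.99 and 10.28 FPKM, and Chek1, a kinase downstream of Atr, fell by 0.18 although its groups overlapped. Both calls were lost without any of 4 libraries, controls 1 and 3 and knockouts 1 and 2, and with each other scaling. Chek2, the kinase downstream of Atm, was not called, but was called higher with quantile or median scaling.

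The changes were set beside the early prophase markers, since these mark the cells in which breaks are made and repaired. The summed leptotene to zygotene markers in knockouts were at 69.3% of controls, and 19 of the 49 genes stood at a lower percentage, 18 of which fell. Single early markers ranged from 32.9% for Stag3 and 37.5% for Sycp2 up to 96.4% for Syce2, and 2 of the 10 were not called. The summed pan germ cell markers were at 39.2% of controls, and 7 of the 49 genes stood under that, all of which fell. Among them were Spo11 at 14.7%, Psmc3ip at 17.0%, Slx4 at 18.7%, Hsf2bp at 22.5% and Cntd1 at 8.0%. None of the 49 was as low as the summed pachytene to diplotene markers, at 2.0%. Single markers of that list ranged from 0.17% for Adam3 to 38.3% for Mybl1, and Cntd1 was below Hspa2, at 9.7%. Single pan germ cell markers ranged from 15.3% for Mael to 97.3% for Dnd1. These are descriptions of levels in the same libraries and carry no test. Genes picked for a low percentage are likely to be called lower, so their calls add nothing further. The sums weigh most on markers with high levels, such as Sycp3 (control mean 160 FPKM, 77.2% in knockouts) and Mael (control mean 412 FPKM).

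Other genes of the pathway, 61 counted by gene, moved in both directions as well. Of 59 tested in spermatocytes, 30 fell and 13 rose, with a median log2 fold change of -0.16. Over all tested rows 38.5% were lower and 40.9% higher. By step, 2 of 4 fell and 0 rose in break formation, 3 and 1 of 5 in end resection, 15 and 3 of 20 in strand exchange, 6 and 4 of 17 in crossover formation, and 4 and 5 of 13 in damage signalling. The largest falls were those of Morc2b, a meiotic chromatin gene, from a mean of 42.6 to 0.600 FPKM (-4.77), and of Prr19, whose product partners Cntd1, from 34.8 to 4.98 (-2.58). The largest rises were those of Wee1, a kinase that holds back entry into division, from 19.2 to 31.2 FPKM (0.67), and of Rad51ap2, from 2.09 to 3.55 (0.56). Cntd1 and Prr19, which act together at crossover sites, were both at least 2-fold lower.

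In GC2 cells many of the meiotic genes were listed at or near 0 FPKM, and 7 of the 49 genes changed with knockdown. No row was listed for Ankrd31, Dmc1, Rnf212 and Ccnb1ip1. For 14 more genes no library reached 1 FPKM, and for 8 of these none reached 0.1 FPKM. Spo11, for instance, stood at 0.0, 0.01 and 0.03 in controls and 0.02, 0.05 and 0.06 in knockdown, and Hfm1 at 0.0 except for 0.01 in knockdown 3. Of 9 leptotene to zygotene markers with a row in GC2, 6 were also under 0.1 FPKM in every library (Sycp1, Sycp2, Rec8, Smc1b, Stra8 and Tex12), as were 3 of 5 pachytene to diplotene markers and the germ cell marker Dazl. Others were present, with Stag3 at 1.86 to 2.25 FPKM in controls and 0.45 to 0.61 in knockdown, Mybl1 at 2.03 to 2.74 in all libraries, and the spermatogonia marker Uchl1 at 28.69 to 33.86 against 46.5 to 58.88. The germ cell marker Dnd1 lies on a row shared with Hars. The label of a spermatocyte line was thus matched by only part of the germ cell markers. Ddx4 and Sycp3 had control means of 0.07 and 0.033 FPKM. The 6 mesenchymal markers had control means of 402 (Fn1), 236 (Col1a1), 137 (Vim), 54.4 (Col1a2), 0.897 (Pdgfrb) and 0.0167 (Thy1) FPKM. With depth unknown, a value at or near 0 does not show that a gene is silent, and H2afx, a histone gene of every cell, was itself listed at 0 in 4 of 6 libraries.

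Of the 49 genes, 29 were tested in GC2, and 5 fell and 2 rose. Over 10791 tested rows 13.9% were lower and 10.7% higher, so the share of these genes called lower was close to that of all rows. The median log2 fold change was -0.05, against -0.04 over all rows. Those that fell were Mre11a, Atm, Atr, Brca1 and Ubr2, and those that rose were Xrcc3 and Rbbp8. Prdm9, Psmc3ip and Mnd1, which are best known from meiosis, were tested and not called.

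Atm stood at 8.48, 7.57 and 8.1 FPKM in control GC2 and 5.5, 5.77 and 6.15 in knockdown, a fall of 0.41 on the log2 scale (SE 0.066, adjusted p = 0.010 by limma). Atr stood at 1.93, 2.09 and 2.04 against 1.16, 1.2 and 1.3 FPKM and fell by 0.44 (SE 0.060, adjusted p = 0.0060 by limma). Both break-signalling kinases were thus lower in every knockdown library, and their calls held without any 1 library. Mre11a stood at 12.49, 11.16 and 10.78 against 7.45, 8.89 and 8.12 FPKM and fell by 0.45, a call lost without control 2 or knockdown 3.

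Brca1 stood at 14.58, 14.34 and 12.59 FPKM in controls and 11.23, 11.51 and 11.41 in knockdown, and Ubr2 at 16.51, 17.71 and 16.77 against 14.79, 13.58 and 14.77. The groups did not overlap in either, but the falls were small, 0.26 and 0.23 on the log2 scale. The call of Brca1 was lost without any library other than control 3, and that of Ubr2 without any of the 6. Both were also lost with quantile or median scaling, under which 3 genes fell and 3 rose. Of all 10791 rows, 1215 were lower and 1405 higher with quantile scaling, and 1238 and 1381 with median centring. Leaving out control 2 or knockdown 3 left 2 falls in place of 5, and control 1 or knockdown 1 left 3.

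Xrcc3 stood at 1.9, 1.82 and 2.0 FPKM in control GC2 and 4.01, 3.63 and 3.85 in knockdown, 2.01 times the control mean (log2 fold change 0.73, SE 0.060, adjusted p = 0.0013 by limma). The chosen row of Rbbp8, which holds assembled transcripts only, stood at 37.84, 30.5 and 26.66 against 113.76, 91.91 and 99.1 FPKM (log2 fold change 1.66, SE 0.15, adjusted p = 0.0018 by limma). Its annotated row rose as well, but less, from 13.49, 14.16 and 13.66 to 17.51, 18.04 and 17.75 FPKM (0.35, adjusted p = 0.0048 by limma). Both genes kept their calls without any 1 library.

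**Figure D4:**
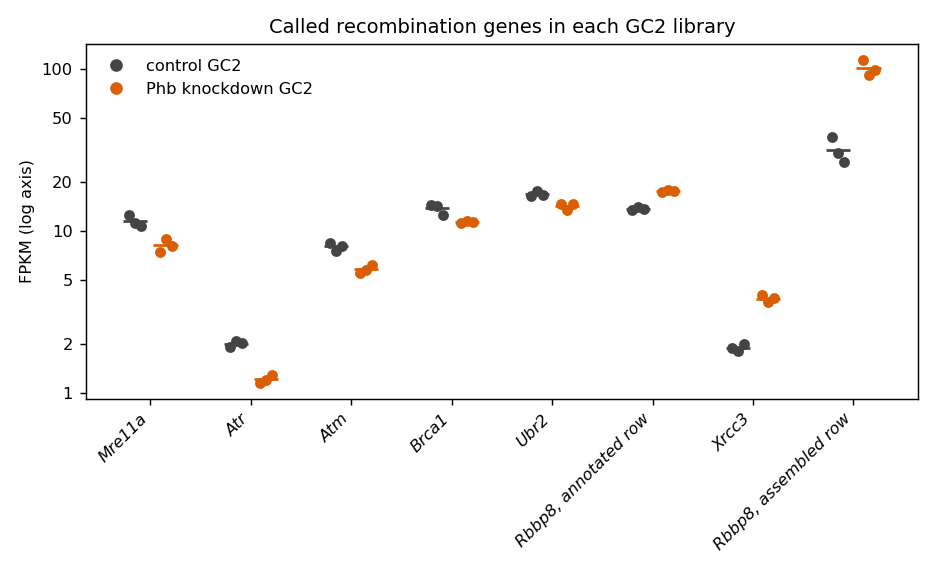
FPKM of the 7 called genes in each GC2 library on a log axis, with Rbbp8 shown by both its assembled and its annotated row; points are the 3 libraries of a group and short lines are group means. Mre11a, Atr, Atm, Brca1 and Ubr2 are lower in each knockdown library, and Xrcc3 and both Rbbp8 rows are higher.

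Some uncalled genes of GC2 had a wide spread. Trip13 stood at 25.41, 24.14 and 23.47 FPKM in controls and 17.48, 9.08 and 16.67 in knockdown, with knockdown 2 far from the others, and was not called (adjusted p = 0.082, limma), but was called in 1 of the fits that leave out a library. H2afx was listed at 0 in 4 of 6 libraries and at 16.07 and 9.82 in the others, so no level is given for it. Psmc3ip and Mnd1 were both present, at 15.6 ± 0.18 and 10.4 ± 1.6 FPKM (SD, n = 3) in controls against 13.8 ± 0.67 and 10.9 ± 0.63 in knockdown. Of the other pathway genes, 7 of 48 tested fell and 4 rose. These shares were close to the 13.9% lower and 10.7% higher over all tested rows of GC2. The largest falls there were those of Samhd1, a resection cofactor, from 17.7 to 10.98 FPKM (-0.64), and Zswim7, a strand exchange cofactor gene, from 6.24 to 3.87 (-0.57). The largest rises were those of the mismatch repair gene Msh6, from 22.5 to 31.6 (0.47), and the nuclease gene Dna2, from 2.99 to 4.18 (0.38).

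The changes in both kinds of sample were compared for the 29 genes tested in each, by the difference of log2 fold changes (spermatocytes minus GC2) in 1 limma fit of all 12 libraries. For 11 genes the change was lower in spermatocytes and for 3 it was higher. Over 9666 genes tested, 22.9% were lower and 38% higher. The median difference of the 29 was -0.21, against 0.22 over all genes. Row sets, cells and the way of depletion all differ between the contrasts, and these cannot be told apart.

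The largest of these differences were those of Slx4 (-2.23, SE 0.086, adjusted p = 2.10e-08 by limma) and Psmc3ip (-2.22, SE 0.097, adjusted p = 4.29e-08 by limma). In GC2 Slx4 had 4.42, 4.37 and 4.77 FPKM in controls and 4.68, 4.89 and 4.97 in knockdown, so it was not lower there. Mdc1, at 16.76, 15.01 and 15.46 against 20.61, 18.3 and 18.42 FPKM in GC2, differed by -1.61. The Rpa1 row, which is shared with another gene name in both kinds of sample, differed by -1.26, and Xrcc3, which rose in GC2 and fell in spermatocytes, by -1.14. The opposite pattern was that of Ubr2, which fell in GC2 and rose in spermatocytes (1.03, adjusted p = 4.41e-07 by limma), and of Atm (0.60, adjusted p = 5.42e-05 by limma). Atr fell in both, to 60.4% of the control mean in GC2 and 49.3% in spermatocytes, with a difference of -0.51. Atr was at 1.93 to 2.09 FPKM in control GC2, where the pseudocount of 1 flattens the change and so enlarges this difference. Mre11a fell in both contrasts, and the difference of -0.07 was not called (adjusted p = 0.57, limma).

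**Figure D5:**
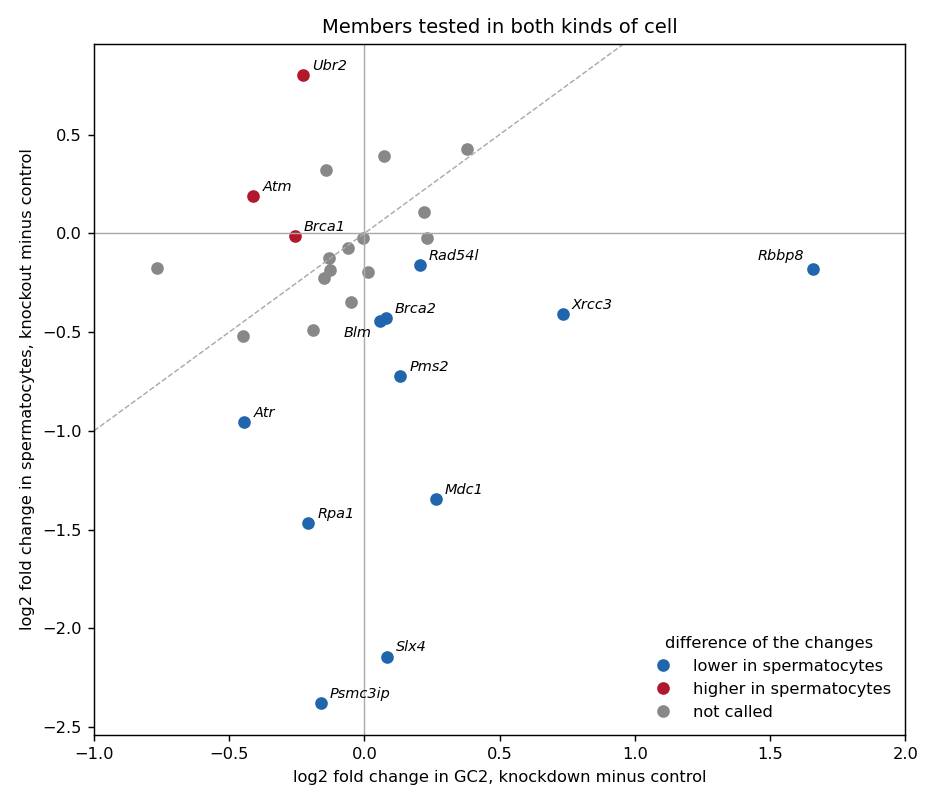
Log2 fold change of the 29 genes tested in both contrasts, GC2 on the horizontal axis and spermatocytes on the vertical axis; the dashed line marks equal changes and called genes are named. Psmc3ip, Slx4, Rpa1 and Mdc1 lie far below the line, and Ubr2 and Atm above it.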

How the data were processed

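The files deposited by the authors hold FPKM values with 2 decimals, per the file headers. Per the submitters' processing notes, HISAT2 2.1.0 and DESeq were used, and GRCm38 and mm10 are named as builds. The quantifier and annotation are not stated there. FPKM does not correct for composition, so a group of genes that takes more of the RNA lowers the rest. Depth is not stated and was not estimated here, so no counting interval is given. Count tests were not run, since the values are not counts. The GC2 and spermatocyte libraries have different row sets, so levels were not compared between them. Each contrast was fitted alone, and the difference of the contrasts in 1 fit of all 12 libraries.

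Rows with a gene name and 1 FPKM or more in 3 or more of 6 libraries were tested. The test was limma 3.58.1 (R 4.3.3) with a variance trend on log2(FPKM + 1), two-sided, with Benjamini-Hochberg adjustment over all tested rows. It was checked on simulated data. Rows without a gene name were left out, 1200 in GC2 and 164 in spermatocytes. Their share of the summed FPKM was 2.11% to 3.93% in GC2 libraries and 0.750% to 0.918% in spermatocyte libraries. A row that names several genes cannot be given to 1 of them, which touched 3 of the genes in GC2 and 5 in spermatocytes.

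The genes, steps, marker lists and naming rule were chosen with earlier results of these data known. The rule gives values in every library for up to 4 called genes a step and direction in spermatocytes, for called genes in GC2 and for partner sets, and names the 2 largest falls and rises of the other pathway genes. Other genes and values were added after their values were seen. Promoters are from the RefSeq table on GRCm38.p6, and gene positions from GENCODE M21 on GRCm38. Alternatives were the pseudocount, the filter, 3 scalings, summed rows, the replicate number as a block and leaving out each library. Summaries used Python 3.11.15 and pandas 2.3.3.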

Additional observations from a re-analysis of the deposited data

Results flagged for a closer look

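For 14 genes the changes in both contrasts differed by the test of the difference itself (spermatocytes minus GC2, log2 scale, limma). The difference was -2.23 for Slx4, -2.22 for Psmc3ip, -1.84 for Rbbp8, -1.61 for Mdc1, -1.26 for the Rpa1 row, -1.14 for Xrcc3, -0.86 for the Pms2 row, -0.51 for Atr, -0.51 for Brca2, -0.50 for Blm and -0.37 for Rad54l. It was 1.03 for Ubr2, 0.60 for Atm and 0.24 for Brca1. The value of Rbbp8 sets an assembled row in GC2 against an annotated row in spermatocytes. The Blm row in GC2 is shared with Crtc3, and the Atr row in spermatocytes with Gm24004. The change of Atr in GC2, where its values are low, is also flattened by the pseudocount of 1. The call of Brca2 was lost with median centring. The call of Rad54l was lost with median centring, with mitochondrial rows removed, and without any of 8 libraries (GC2 control 3, knockdown 2 and 3, spermatocyte controls 1 and 3 and each knockout), with adjusted p up to 0.10. That of Brca1 was lost with quantile normalization and without any of 10 libraries, all but GC2 control 3 and spermatocyte control 3, with adjusted p up to 0.11.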

How the results depend on the processing

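In spermatocytes the 28 falls numbered 19 to 28 over the alternatives, 27 of them with the replicate block, and the 9 rises numbered 7 to 14, the 14 with median centring. Leaving out 1 library gave 24 to 28 falls and 7 to 10 rises. In GC2 the 5 falls became 3 with no filter, 3 with quantile normalization, 3 with median centring, 2 with the replicate block and 2 to 4 without 1 library, and the 2 rises 2 to 3. Genes whose change was lower in spermatocytes, 11, became 19 with no filter and 17 with quantile normalization, and 10 to 12 without 1 library. Those with a higher change, 3, became 6 with median centring and 2 to 4 without 1 library. Scaling moved the median of all rows in spermatocytes from 0.05 to 0.28 (quantile), 0.21 (median centring) and 0.12 (mitochondrial rows removed). Among changes called in either fit, signs turned with median centring in spermatocytes for Rad50 (0.14), Rpa2 (0.14), Tex11 (0.030) and Topbp1 (0.037), with quantile normalization for Tex11 (0.000445), and with summed rows for Rbbp8 (0.76). With quantile normalization the difference between contrasts turned for Brca1 (-0.00823) and Topbp1 (-0.15). Values called in neither fit turned as well. In spermatocytes 6 of 49 signs in all turned with quantile normalization, 6 with median centring and 4 with mitochondrial rows removed, Nbn, Brca1, Rad50 and Rpa2 under each of them. In GC2 2 of 29 turned with quantile normalization and 1 with median centring, and of the 29 differences 3, 6 and 3 turned under these 3 scalings and 1 with a pseudocount of 0.1. The cause was not tested.

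Same-numbered libraries deviated together with r of 0.124, 0.078 and 0.061 in GC2, where each library correlated best with its own number. The other GC2 pairs had r from -0.074 to -0.00087. In spermatocytes r was 0.0074, -0.054 and 0.0074 for the same number. The labels do not say what libraries of 1 number share, and a pairing in GC2 was not tested. With the replicate block Mre11a, Brca1 and Ubr2 were not called in GC2, Rbbp8 and Tex11 in spermatocytes, and Rad54l and Brca1 in the difference, while Mdc1 in GC2 and Exo1 in spermatocytes were. The count-only alternatives (DESeq2, size factors) were not run. The unknown depth limits low genes, which the pseudocount of 1 also flattens.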
